A study of Mus musculus with 8 samples.

Results

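The olfactory receptors numbered Olfr466 to Olfr541 are a run of mouse odorant receptor genes, most of them in tandem clusters on chromosome 7. They were taken from the deposited gene table by symbol, and 59 genes carry a symbol in this range of 76 numbers. They make up 5.34% of the 1104 receptors with a symbol of this form, among 22553 genes in all, and the other 1045 receptors serve for comparison. In the 4 groups of cells the 59 receptors held between 4.26% and 4.72% of receptor footprints, somewhat below their share of the gene number. They were uneven within the set: Olfr536 alone held between 15.8% and 35.4% of their footprints, and 4 of the 59 had no footprint in any group.

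Odorant receptors are seven-transmembrane proteins that bind odours in the cilia of olfactory sensory neurons. Each neuron expresses a single receptor gene from a single allele, so the level of a receptor in a pool of neurons reflects both how many cells chose it and how much RNA each cell makes, and in sorted pools these cannot be told apart. Receptor choice begins in immature neurons, and the chosen receptor is transcribed strongly as the neuron matures. Receptors fall into class I, related to those of fish, and class II, the large group found in land vertebrates.

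Ribosome footprints, the stretches of mRNA protected by ribosomes, and input RNA were sequenced from cells sorted out of the dissociated main olfactory epithelium. The tag Ngn1-GFP, a transgene, marked progenitors and immature neurons, and OMP-ires-GFP, a reporter at the gene of olfactory marker protein, marked mature neurons. KO cells came from Mex3a flox/flox mice with a Cre driver, and control cells came from mice with 1 or 2 floxed Mex3a alleles and no Cre, each with the same GFP tag as the KO of that population. Mex3a encodes an RNA-binding protein with a RING domain. The genotype tag of the OMP-GFP KO names a Cre allele at the gene of olfactory marker protein where its description names the GFP allele, and the description was followed. Ages were not given in the labels. Each group has 2 footprint libraries in the labels and 1 column of footprints and 1 of RNA in the table, so every value here stands for a group, there is no replicate spread, and no test of a difference between conditions could be made.

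Values of 4 columns are given with the Ngn1-GFP cells before the OMP-GFP cells, and within each population the control before the KO. The columns held 4456989, 3031489, 3576406 and 4100841 footprints, with RNA totals between 26946592 and 89327877. Mex3a, the deleted gene, had 437, 28, 16 and 5 footprints and 9645, 656, 387 and 38 RNA counts. Mature neuron markers, summed over 8 genes, held 1.25%, 1.41%, 2.01% and 2.29% of footprints, and 7 precursor markers held 0.123%, 0.154%, 0.0159% and 0.0188%. Immature neuron markers, also 8 genes, lay closer together, at 0.736%, 0.892%, 0.598% and 0.588%. After scaling, 2 of these 8 were higher in the OMP-GFP control than in the Ngn1-GFP control. Footprints of Omp itself, per coding length and scaled to library size, stood at 5744, 5904, 5492 and 7302. The sorts also held other cells: sustentacular cell markers, from the support cells of the epithelium, held 0.508%, 0.0502%, 0.0143% and 0.0376% of footprints. Gland markers held 0.0351%, 0.0646%, 0.00562% and 0.0482%, with the odorant-binding protein Obp1b at 0 in all columns but the first. The basal cell genes Krt14, Trp63 and Krt15 had no footprint in either OMP-GFP column. The part of these cells in the results was not tested.

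All 59 members were found in the RefSeq annotation of GRCm38.p6, which places 42 of them between positions 107814586 and 108894405 of chromosome 7. A distal cluster of 14 lies between 140162010 and 140705191 of the same chromosome, a proximal pair, Olfr520 and Olfr521, between 99735145 and 99768130, and Olfr466 on chromosome 13 (65152226 to 65153152). RefSeq synonyms assign the members to 13 receptor families, named MOR for mouse olfactory receptor. The middle cluster holds MOR204, all 31 of whose receptors in the table are members, and all 6 receptors of MOR268. The distal cluster holds the 11 members of MOR251, MOR252 and MOR253. Olfr503 and Olfr504, of the class I families MOR34 and MOR40, lie in the middle cluster. Coding lengths ran from 915 to 1029 bases. Neighbouring receptors can be near copies, so reads of a single member may be shared between copies and single values are uncertain to that extent.

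Only 3 of the 55 members with a RefSeq promoter window have an annotated start upstream of the ATG, and the other 52 windows begin at the ATG itself and do not show a promoter. The windows of Olfr536, the receptor with the most RNA per coding length, and of Olfr478, which had higher footprints in both KO columns, are shown. Each runs from 250 bases before to 50 after the annotated start in GRCm38.p6, 5′ to 3′ on the minus strand, at chr7:140507269-140507568 and chr7:108033918-108034217. Capitals mark TAATTA, a core recognised by homeodomain factors such as Lhx2.
Olfr536: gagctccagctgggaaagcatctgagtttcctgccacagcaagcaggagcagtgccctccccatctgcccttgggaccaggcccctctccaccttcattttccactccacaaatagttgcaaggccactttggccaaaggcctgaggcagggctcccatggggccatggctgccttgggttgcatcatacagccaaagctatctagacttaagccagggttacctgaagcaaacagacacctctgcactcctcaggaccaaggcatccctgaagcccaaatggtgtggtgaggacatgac
Olfr478: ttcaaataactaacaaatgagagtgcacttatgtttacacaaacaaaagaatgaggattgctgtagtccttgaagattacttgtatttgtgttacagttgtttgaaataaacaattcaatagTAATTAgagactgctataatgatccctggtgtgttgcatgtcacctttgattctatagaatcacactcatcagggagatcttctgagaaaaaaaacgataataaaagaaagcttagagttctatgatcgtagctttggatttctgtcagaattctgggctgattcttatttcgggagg
The Olfr478 window holds TAATTA at position -128 and has a GC content of 34.3%. The Olfr536 window has 56.3% GC and holds none of the motifs searched on both strands. The window of Olfr480, which also starts upstream of the ATG, is not shown and holds none of these motifs. The first of them, TAATTA, occurs in 5.29% of all 32851 RefSeq windows and in 18.5% of the 259 receptor windows that start upstream of the ATG. The related core TAATTG occurs in 8.0% and 27.0% of these windows. The palindromic core of Ebf (Olf-1) sites occurs in 0.904% and 0.772%, and a window can hold several of these motifs. A match is a run of letters and not evidence of binding.

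Footprint levels, as reads per kilobase of coding sequence scaled to library size (RPKM), ran from 0 to 166 around low medians. The median member had 3.32, 3.55, 3.54 and 3.81 RPKM in the 4 columns, from a median of 14, 10, 12 and 15 footprints. The medians of other receptors were higher, at 4.61, 4.64, 5.34 and 4.43 RPKM. Summed over members, footprints numbered 1752, 1167, 1553 and 1820, or 0.0393%, 0.0385%, 0.0434% and 0.0444% of each column. Their RNA counts were 18628, 6340, 8499 and 7453, which was 4.82%, 5.71%, 5.80% and 5.58% of receptor RNA. In each column the members thus held a larger share of receptor RNA than of receptor footprints, by the smallest margin in the Ngn1-GFP control.

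**Figure D1:**
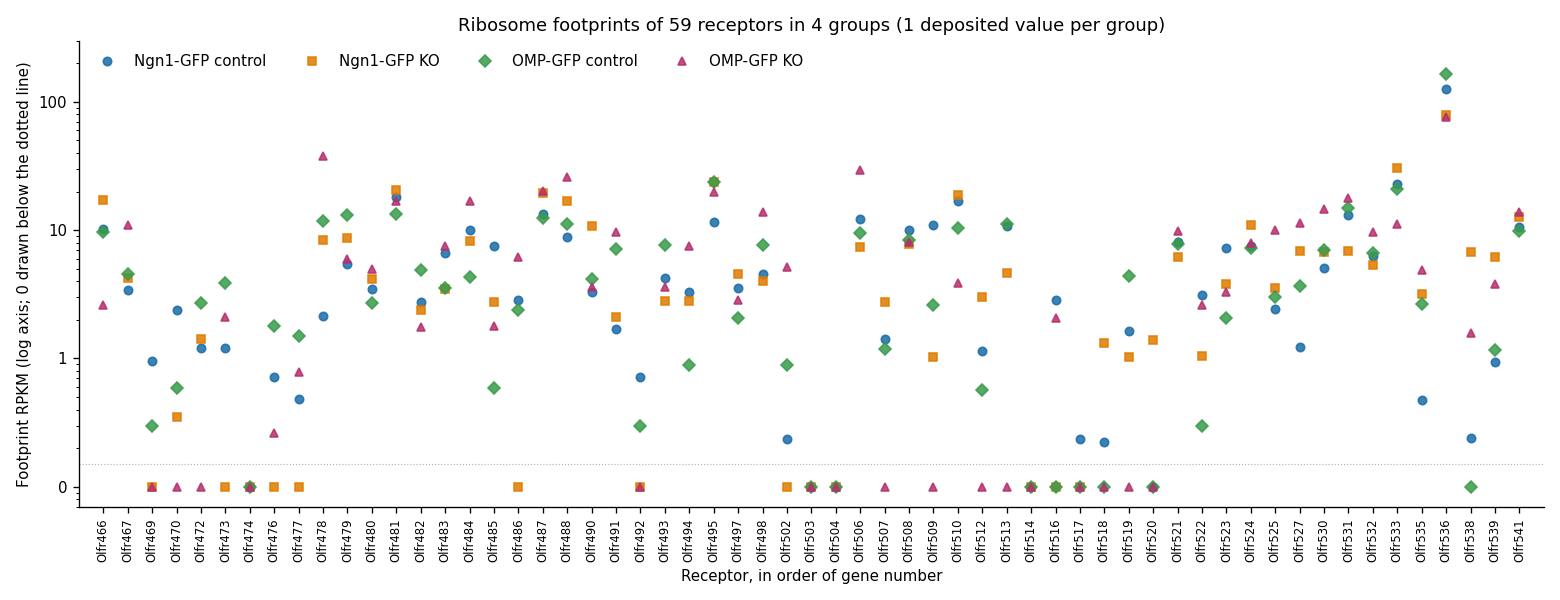
Footprint RPKM of the 59 receptors in order of gene number on a log axis, with 1 symbol for each of the 4 groups and values of 0 drawn below the dotted line. Olfr536 stands above all other members in each group, at 76.0 to 166 RPKM, and Olfr474, Olfr503, Olfr504 and Olfr514 are at 0 in all 4.

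Olfr536, a class II receptor of MOR252 in the distal cluster (chromosome 7, 140500853 to 140507318), was the member with the highest level in every column. It had 515, 221, 549 and 288 footprints, or 125, 78.9, 166 and 76.0 RPKM. Among all 1104 receptors it ranked 2, 4, 2 and 5 by footprint RPKM. Its RNA counts were 3729, 849, 1867 and 1163, or 57.6, 47.7, 91.3 and 66.1 TPM, RNA reads per coding length scaled to a fixed total, and it ranked 1 by RNA TPM in all 4 columns. The next member stood 5.48-fold below it in the Ngn1-GFP control (Olfr533) and 6.94-fold below it in the OMP-GFP control (Olfr495). In the KO columns this distance was 2.59-fold (Olfr533) and 2.02-fold (Olfr478). Its footprints were lower in both KO columns. After scaling, the log2 ratio of KO over control, with its 95% counting interval, was -0.60 [-0.83, -0.37] in Ngn1-GFP cells and -1.05 [-1.26, -0.84] in OMP-GFP cells, the latter a 2.07-fold difference. Its RNA was lower too, at -0.51 [-0.61, -0.40] and -0.42 [-0.53, -0.32]. The intervals of footprints and RNA overlapped in Ngn1-GFP cells and lay apart in OMP-GFP cells. Intervals cover counting error only, since PCR copies were not told apart by molecular identifiers and libraries of 1 group can differ.

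Olfr533, also of MOR252, was the next member by mean footprint RPKM. It had 98, 89, 72 and 44 footprints and 1401, 646, 722 and 816 RNA counts. Its footprint ratio of KO over control was 0.48 [0.05, 0.91] in Ngn1-GFP cells and -0.83 [-1.41, -0.27] in OMP-GFP cells, while its RNA ratios were 0.51 and 0.44. The next members by this measure were of MOR204, led by Olfr495 with 51, 71, 85 and 81 footprints and Olfr481 with 76, 58, 45 and 65. Olfr487 (56, 56, 42 and 78), Olfr488 (37, 48, 38 and 100), Olfr478 and Olfr506 followed, then Olfr531 of MOR251 (54, 19, 49 and 67) and Olfr510 of MOR204. Among the top 100 receptors of each column by footprint RPKM there were 2, 3, 2 and 3 members.

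The number of members with a footprint was higher in the controls than in the KO columns, at 54, 46, 50 and 43 of 59. These are 91.5%, 78.0%, 84.7% and 72.9% of the members, beside 92.1%, 81.7%, 91.6% and 81.4% of the other receptors. Of all genes, 69.1%, 63.5%, 64.3% and 58.7% had a footprint, so the lower numbers in the KO columns were not particular to receptors. At the depth of the shallowest column the expected numbers were 52.4, 46.0, 49.5 and 42.7, so the order of the columns was the same at equal depth. Members with at least 3 footprints numbered 48, 45, 44 and 42, with the Ngn1-GFP KO above the OMP-GFP control, and members with at least 10 numbered 36, 31, 32 and 36, with the OMP-GFP KO above its control. A footprint was found in all 4 columns for 36 members, in 3 for 13, in 2 for 4 and in 1 for 2. The class I receptors Olfr503 and Olfr504, Olfr474 of MOR204 and Olfr514 of MOR268 had none. A count of 0 allows up to 3 footprints, and these 4 also had little RNA: Olfr503 had 67, 1, 0 and 0 counts, Olfr504 had 11 in the first column and 0 elsewhere, Olfr474 had 7 in the first and 0 elsewhere, and Olfr514 had 1 in all.

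Other members had RNA without footprints. With at least 20 RNA counts, 2, 5, 5 and 8 members had no footprint, which was 3.57%, 10.2%, 10.6% and 17.0% of members with that much RNA, and 7.46%, 11.4%, 2.60% and 10.4% of other receptors. Over all genes with that much RNA it was 8.86%, 7.5%, 3.98% and 8.69%. Olfr517 of MOR268 was in this state in 3 columns, with 108, 68, 35 and 52 RNA counts and a lone footprint in the Ngn1-GFP control. Its neighbour Olfr518 had 365, 141, 111 and 140 RNA counts and 1, 4, 0 and 0 footprints. Olfr509 of MOR267 had the most RNA without a footprint, 199 counts in the OMP-GFP KO.

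Footprints per RNA, the share of a column's footprints that a gene holds divided by its share of RNA, describes how densely ribosomes cover an RNA. A value of 1 is the mean over all reads, and it depends on the separate RNA columns. Over members with at least 20 RNA counts and 1 footprint, the median log2 value was 0.38, 0.65, 0.67 and 0.72 (54, 44, 42 and 39 members). Other receptors had medians of 0.77, 1.10, 0.88 and 0.78, and all genes 0.16, -0.03, -0.16 and -0.23. Receptors were thus above all genes in each column, and members were below other receptors in each column. The median rests partly on thin genes: with at least 50 RNA counts and 10 footprints it was 0.97, 1.13, 0.85 and 0.81 for members and 1.15, 1.26, 1.10 and 0.96 for other receptors. Across members, footprint RPKM and RNA TPM had Spearman's rho of 0.58, 0.59, 0.64 and 0.68, and across other receptors 0.56, 0.64, 0.66 and 0.64. These are descriptions across genes of the same libraries.

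**Figure D2:**
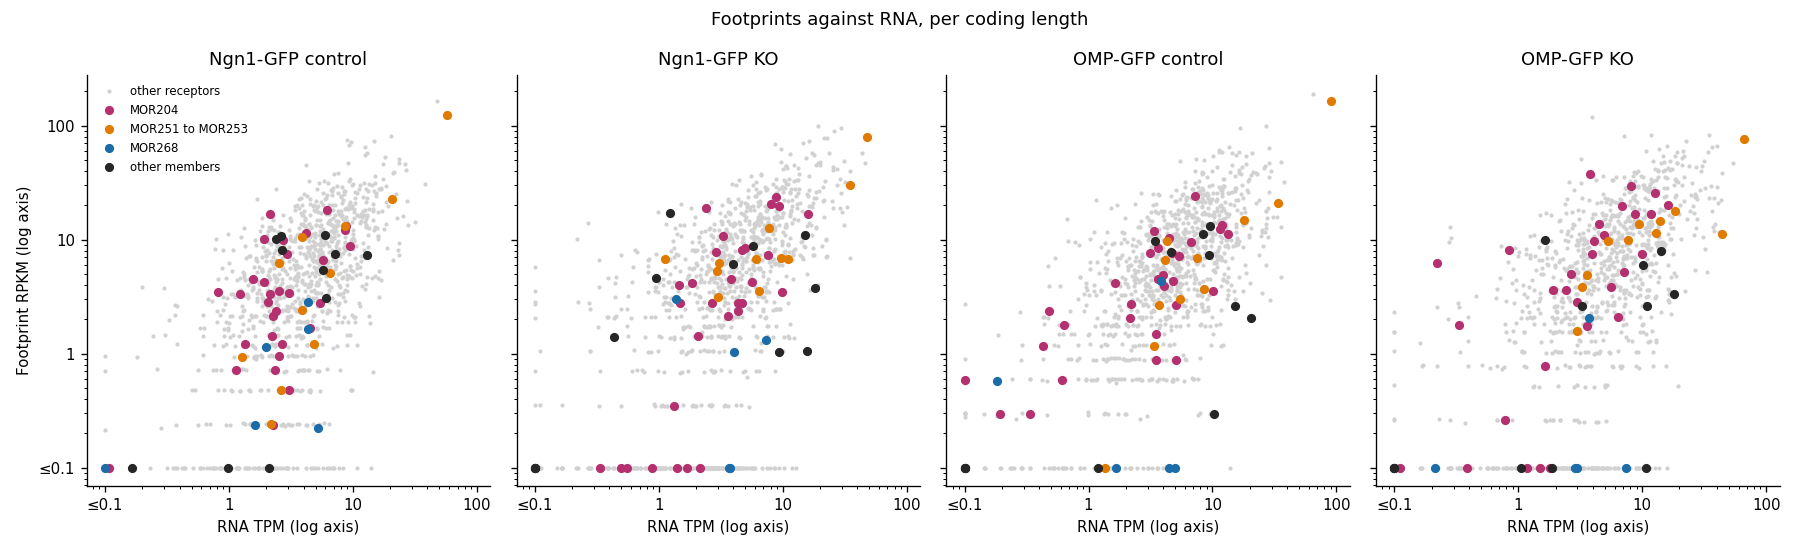
Footprint RPKM against RNA TPM on log axes, 1 panel per group, with other receptors in grey and members coloured by family; values of 0.1 or less are drawn at the edge. Olfr536 lies at the upper right of each panel, and most values of the 6 MOR268 receptors lie low for their RNA.

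Receptors were put in order of footprints per RNA where both controls together held at least 10 footprints and 20 RNA counts, which left 908. The members among them ranged widely, and 26 of the 44 members in this order lay below the receptor median. Members with fewer footprints, such as Olfr517 and Olfr518, had no place in it. The lowest members in this order were Olfr522 of MOR103 (13, 3, 1 and 10 footprints on 403, 287, 214 and 194 RNA counts) and Olfr523 of MOR104 (31, 11, 7 and 13 on 876, 333, 431 and 326). Olfr522 stood at place 8 and Olfr523 at place 27 of 908 from the low end. Olfr516 of MOR268 stood at place 39, with 12, 0, 0 and 8 footprints on 289, 67, 94 and 67 RNA counts. At the high end were Olfr510 (71, 54, 35 and 15 on 141, 44, 94 and 101), Olfr466 of MOR209 (42, 48, 32 and 10 on 155, 22, 71 and 58) and Olfr508 of MOR204 (42, 22, 28 and 31 on 125, 52, 75 and 15). Olfr510 covered its RNA 10.1 and 11.2 times the mean in the Ngn1-GFP columns, and 3.32 and 0.98 times in the OMP-GFP columns. Olfr536 lay between, at 2.77, 2.39, 2.62 and 1.63.

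MOR268 as a family had few footprints for its RNA. Its 6 receptors together had 26, 16, 17 and 8 footprints on 1189, 378, 326 and 317 RNA counts. Over both controls its footprints per RNA were 0.45, the lowest of the 76 families with at least 5 receptors, whose median was 1.98. Families were compared after the values had been seen, so this is a description of these columns.

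In Ngn1-GFP cells the question was whether receptor footprints of precursors and immature neurons differ when Mex3a is deleted. The summed footprints of the members had a log2 ratio of KO over control of 0.04 [-0.07, 0.14], and 0.24 [0.11, 0.36] without Olfr536. Of the 59, 35 had enough counts to be measured, which asks for at least 20 footprints in the pair of columns and a gene that passed the filter on low counts. A gene was counted as apart when it differed at least 2-fold with a counting interval excluding no difference. By this rule 6 members were higher and 3 lower, beside 17.3% of all genes measured (6.49% higher and 10.8% lower) and 258 of 685 other receptors (37.7%). The median was 0.32 for members and 0.18 for other receptors. With at least 50 footprints in the pair, 3 of 18 members measured were apart. Shares of all genes and other receptors at that minimum are not given here.

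The higher members in Ngn1-GFP cells were 3 of MOR204 and 3 of the distal cluster. Olfr538 of MOR253 had 1, 19, 0 and 6 footprints, a ratio of 4.87 [2.22, 10.25] that starts from 1 footprint, while its RNA was lower (142 and 20 counts, -1.20 [-1.95, -0.52]). Olfr539 of MOR253 had 4, 18, 4 and 15 footprints (2.79 [1.19, 4.81]), with higher RNA too (86 and 57 counts, 1.04 [0.53, 1.54]). Olfr527 of MOR251 had 5, 19, 12 and 43 (2.55 [1.08, 4.33]) on RNA of 0.10 [-0.23, 0.42]. Olfr478 (9 and 24, 2.04 [0.88, 3.33]), Olfr490 (14 and 31, 1.77 [0.82, 2.79]) and Olfr495 (1.10 [0.56, 1.65]) of MOR204 completed the group. Among the lower members, Olfr509 went from 47 to 3 footprints (-3.35 [-5.68, -1.71]) with RNA at 0.40 [0.14, 0.66]. Olfr485 of MOR204 had 32 and 8 footprints (-1.38 [-2.71, -0.23]), and Olfr513 of MOR195 had 45 and 13 (-1.17 [-2.18, -0.25]) with RNA of 172 and 17 (-1.71 [-2.52, -0.99]). All 8 sustentacular markers were lower in this KO column.

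In OMP-GFP cells the same comparison was made in mature neurons. Of 36 members measured, 12 were higher and 7 lower, 52.8% together, beside 15.7% of all genes (7.12% higher and 8.54% lower) and 199 of 680 other receptors (29.3%). The median was 0.60 for members and 0.06 for other receptors. The sum over members was nearly level at 0.11 [0.01, 0.21], since the lower Olfr536 offset the others, and was 0.49 [0.37, 0.61] without it. Scaled by library size alone, the sum over all members was 0.03 [-0.07, 0.13]. With at least 50 footprints in the pair, 10 of 22 members measured were apart, 7 higher and 3 lower. The shares above hold for the lower minimum and cannot be set beside these counts. With at least 50 footprints in any 2 columns, 8 members were left, of which 1 was higher and 2 were lower. Their median was 0.07. This minimum does not pick the members with the most footprints. It left out Olfr478 (40 and 146 footprints, 1.75) and Olfr488 (38 and 100, 1.28), which reached 50 in the OMP-GFP KO column only. It kept Olfr510 (35 and 15, -1.34), which reached 50 in both Ngn1-GFP columns. The 8 members therefore cannot show whether the higher median holds in members with many footprints. In this KO column 5 of 7 sustentacular and 5 of 5 gland markers measured were higher.

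Of the 12 higher members in OMP-GFP cells, 9 were of MOR204 and 3 of the distal cluster. Olfr494 went from 3 to 29 footprints (3.15 [1.46, 5.51]) and Olfr502 from 3 to 20 (2.62 [0.86, 5.01]), both from very few. Olfr484 had 15 and 67 (2.04 [1.22, 2.95]), Olfr478 had 40 and 146 (1.75 [1.23, 2.29]) and Olfr506 had 32 and 114 (1.71 [1.14, 2.33]). Olfr478 and Olfr506 rest on the most footprints of these, and their RNA ratios were 0.22 [-0.29, 0.72] and 0.33 [-0.01, 0.67]. Olfr488, Olfr467, Olfr483 and Olfr486 of MOR204 were higher by 1.15 to 1.46. In the distal cluster Olfr525 (10 and 38 footprints, 1.81 [0.77, 2.98]), Olfr527 (12 and 43, 1.72 [0.77, 2.78]) and Olfr530 (23 and 55, 1.14 [0.41, 1.91]) were higher.

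The 7 lower members in OMP-GFP cells were led by Olfr513, which went from 37 footprints to 0, at least 13.4-fold lower with the 0 set to 3 counts. This is the ratio at that floor, and with the counting error of the control the end of its log2 interval nearest 0 was -3.37. Its RNA was lower as well, from 174 to 33 counts (-2.14 [-2.72, -1.60]). Olfr466, the member on chromosome 13, went from 32 to 10 (-1.80 [-2.99, -0.74]) with an RNA ratio of -0.03 [-0.56, 0.49]. Olfr510 (35 and 15, -1.34 [-2.32, -0.43]), Olfr479 of MOR267 (46 and 24, -1.06 [-1.84, -0.32]), Olfr482, Olfr493 and Olfr536 were the others.

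**Figure D3:**
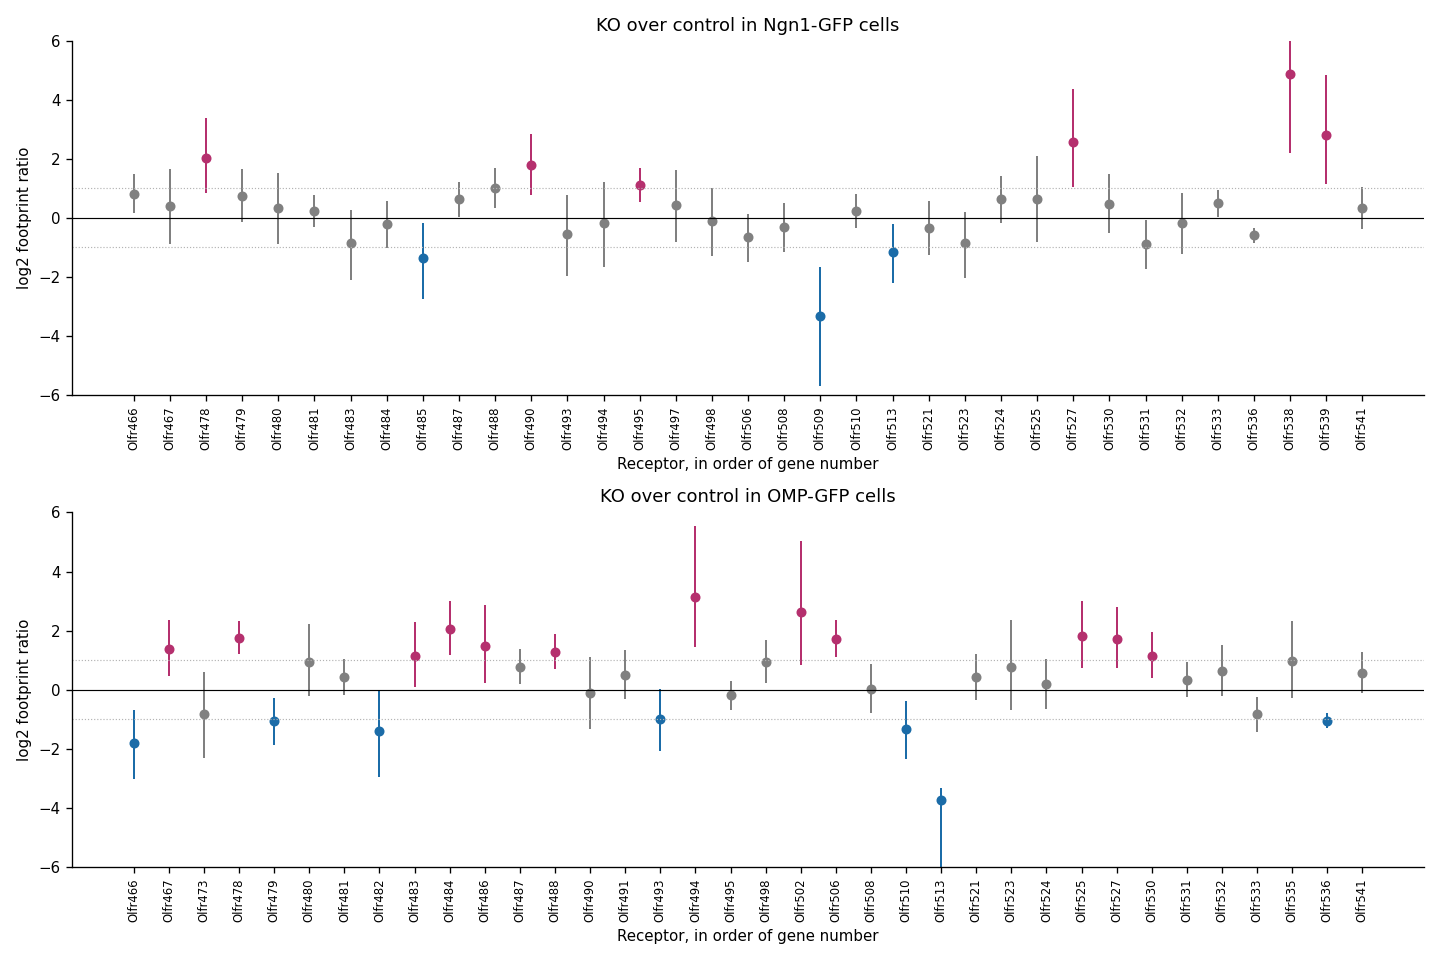
Log2 footprint ratio of KO over control for the members measured in Ngn1-GFP cells (35) and OMP-GFP cells (36), with 95% counting intervals; coloured points are at least 2-fold apart, and dotted lines mark 2-fold. Intervals of Olfr538 (upper panel) and Olfr513 (lower panel) run beyond the axis, and Olfr536 has the narrowest interval in both panels.

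Members measured in both populations numbered 30, and 14 of them had ratios of the same sign. Olfr478 and Olfr527 were higher and Olfr513 lower by at least 2-fold in both KO columns, and no member was at least 2-fold apart in opposite directions. How often this occurs over all genes or other receptors is not given here, so these counts are no measure of agreement between the populations. For Olfr478 the footprints of the 4 columns were 9, 24, 40 and 146. Its RNA counts were 151, 91, 70 and 68, which after scaling were 2.28, 5.0, 3.35 and 3.78 TPM, and its RNA ratio was 0.90 [0.51, 1.28] in the Ngn1-GFP KO. Its footprints had the lowest level in the Ngn1-GFP control and the highest in the OMP-GFP KO, and its receptor rank by footprint RPKM went from 774 to 368, 269 and 45.

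MOR204, the family that fills most of the middle cluster, had summed footprints of 677, 519, 569 and 1020. Its sum was higher in the OMP-GFP KO by 0.72 [0.57, 0.87] on the log2 scale, and by 0.24 [0.07, 0.41] in the Ngn1-GFP KO. Its RNA was closer to level, at 0.15 [0.07, 0.23] and 0.06 [-0.01, 0.13]. Of 21 MOR204 receptors measured in OMP-GFP cells, 9 were higher and 3 lower, with a median of 0.93. The difference did not rest on Olfr478 alone: without it the sum was 0.60 [0.45, 0.76], and without Olfr506 as well 0.49 [0.33, 0.66]. Among the 76 families with at least 5 receptors MOR204 ranked 6 from the top in this comparison, with a range over families of -2.67 to 1.03 and a median of 0.04. MOR253 ranked 5 and MOR251 ranked 12, ranks taken over all receptors of each family, of which 4 of 10 and 4 of 5 are members. MOR251 to MOR253 summed over members stood at -0.36 [-0.51, -0.21], a sum dominated by Olfr536. Without it the whole distal cluster had 341, 299, 267 and 431 footprints.

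**Figure D4:**
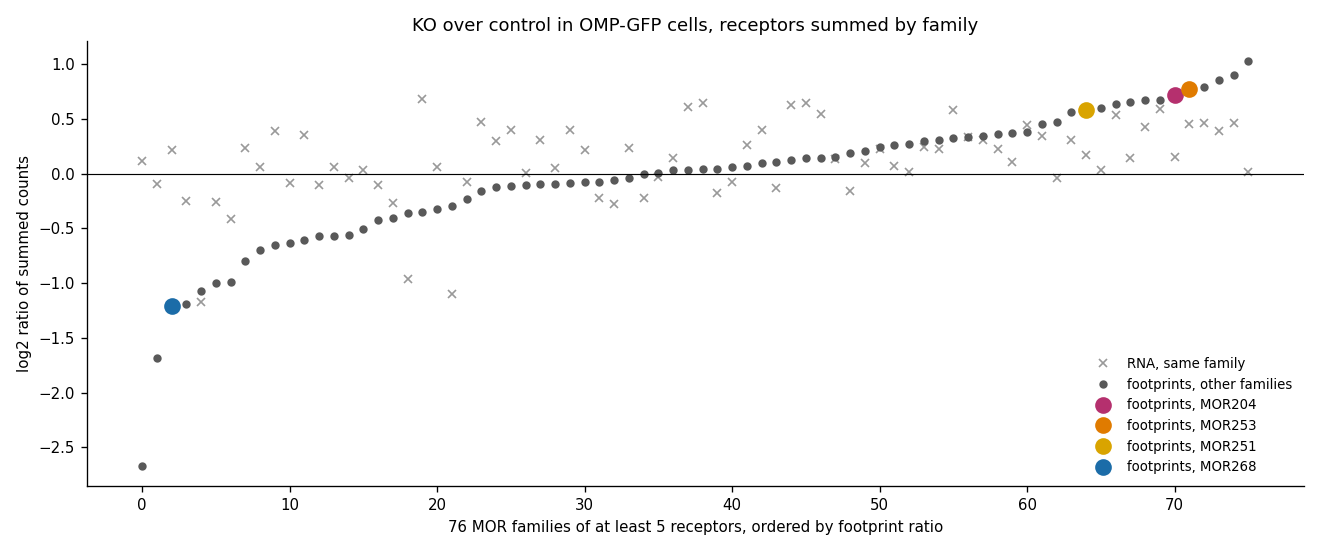
Log2 ratio of KO over control in OMP-GFP cells for receptors summed by family, for the 76 families with at least 5 receptors in order of the footprint ratio (points), with the RNA ratio of the same family (crosses). MOR204, MOR253 and MOR251, the last 2 with receptors outside the 59, lie among the higher families in footprints, and MOR268, which rests on 25 footprints, among the lowest.

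RNA could be measured in more members than footprints could. In Ngn1-GFP cells 2 of 56 members measured were higher and 10 lower, beside 15.7% of all genes (4.49% higher and 11.3% lower), with a median of -0.03. Of 1026 other receptors, 62 were higher and 227 lower (28.2% together), with a median of -0.20. In OMP-GFP cells 4 of 50 members were higher and 5 lower, beside 8.29% of all genes (4.4% higher and 3.89% lower), with a median of 0.17. Here 93 of 965 other receptors were higher and 91 lower (19.1% together), with a median of 0.13. Of 35 members measured in both assays in Ngn1-GFP cells, 4 had RNA apart and 9 had footprints apart. Of the 9 members whose footprints were apart in Ngn1-GFP cells, RNA was apart in the same direction for Olfr513 and Olfr539 and in the opposite direction for Olfr538. Of the 18 in OMP-GFP cells that had measured RNA, RNA was apart in the same direction for Olfr513 only. The same counts over all genes or other receptors are not given here, so these describe the members alone. Summed RNA of the members had ratios of 0.07 [0.03, 0.12] and 0.07 [0.02, 0.11], and that of other receptors -0.18 [-0.19, -0.17] and 0.13 [0.12, 0.14]. Some members had their highest RNA level in the Ngn1-GFP control. Olfr470 had 2.40, 1.32, 0 and 0.11 TPM, Olfr476 had 2.34, 0.33, 0.63 and 0.79, and Olfr486 had 2.07, 0.55, 0.48 and 0.22. That RNA column held 375 genes at least 8-fold above each other column, against 10, 1 and 5 in the others, and no member was among them.

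Mature cells were set against immature cells within each genotype. In controls the summed member footprints were higher in OMP-GFP cells by 0.36 [0.26, 0.46], and in KO cells by 0.43 [0.32, 0.54]. In controls 6 of 35 members were higher and 3 lower, beside 23.5% of all genes (6.11% higher and 17.4% lower) and 234 of 730 other receptors (32.1%), with medians of 0.18 for members and 0.44 for other receptors. In KO cells 14 of 36 were higher and 5 lower, beside 29.6% of all genes (11.3% higher and 18.4% lower) and 298 of 667 other receptors (44.7%), with medians of 0.72 and 0.32. With at least 50 footprints in the pair, 3 of 18 members measured were apart in controls and 11 of 22 in KO cells. Shares of all genes and other receptors at that minimum are not given here. All 8 sustentacular markers were lower in mature control cells, and 2 of 7 in mature KO cells. Scaling by library size alone lowered all footprint ratios of mature over immature cells by 0.21 in controls and 0.23 in KO cells, and turned the sign of the control median, from 0.18 to -0.04. Summed RNA of the members was higher in mature cells by 0.40 in both genotypes, and that of other receptors by 0.12 in controls and 0.43 in KO cells. In RNA 8 of 56 members were higher and 9 lower in controls, beside 26.8% of all genes (3.49% higher and 23.3% lower). Of 1030 other receptors, 112 were higher and 161 lower (26.5% together). In KO cells 12 of 54 members were higher and 7 lower, beside 21.2% of all genes (4.77% higher and 16.4% lower). Here 194 of 966 other receptors were higher and 60 lower (26.3% together).

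Single members of this comparison show how far footprints and RNA went apart. In controls Olfr478 (9 and 40 footprints, 2.68 [1.62, 3.91]), Olfr491 (7 and 24, 2.31 [1.05, 3.77]), Olfr519 (7 and 15, 1.63 [0.25, 3.17]), Olfr479 and Olfr495 were higher in mature cells. Olfr485 was lower in footprints (32 and 2, -3.47 [-6.57, -1.50]) and in RNA (198 and 13, -2.40 [-3.33, -1.59]). Olfr509 was lower in footprints (47 and 9, -1.85 [-3.07, -0.81]) and higher in RNA (405 and 328 counts, 1.23 [1.01, 1.44] after scaling). In KO cells Olfr486 went from 0 to 24 footprints, at least 6.92-fold higher with the 0 set to 3 counts, and Olfr502 from 0 to 20, at least 5.76-fold. The ends of their log2 intervals nearest 0 were 2.38 and 2.09. Olfr502, Olfr484, Olfr498 and Olfr531 were higher in both footprints and RNA. Olfr466 (48 and 10 footprints, -2.47 [-3.62, -1.47]), Olfr510 (54 and 15, -2.06 [-2.99, -1.21]) and Olfr538 (19 and 6, -1.87 [-3.49, -0.49]) were lower in footprints and higher in RNA.

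Genes that serve receptor signalling, transport and choice differed by less than 2-fold in the KO comparisons. The 23 genes listed, among them the G protein Gnal, the cyclase Adcy3, the channel subunits Cnga2 and Cnga4, the transport proteins Rtp1 and Rtp2 and the regulators Lhx2, Ldb1 and Ebf1, were all measured. None was at least 2-fold apart in either KO comparison, in footprints or in RNA, and their footprint medians were 0.10 and 0.01. Their RNA ratio was above 0 for 19 of 23 in both KO comparisons, with medians of 0.22 and 0.10. Smaller differences with narrow intervals were found: Gfy, which encodes a Golgi protein, had an RNA ratio of 0.89 [0.88, 0.90] in the Ngn1-GFP KO. The transcription factor Atf5 had footprint ratios of 0.64 [0.59, 0.69] and 0.56 [0.49, 0.63]. Lhx2 had 312, 294, 79.6 and 86.2 footprint RPKM, lower in mature cells, and Gnal had 2020, 2207, 3079 and 4091. In mature over immature controls 4 of the 23 were higher (Cnga4, Ano2, Rtp2 and Reep1) and 1 lower (Lhx2).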

How the data were processed

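The deposited table gives for each of 4 groups, per the file headers, footprint counts and input RNA counts over coding sequences, the coding length, footprint RPKM and RNA TPM as made by the authors. FastQC, cutadapt, STAR and the build mm10 are named without versions in the submitters' processing notes, and the labels' protocols name papain dissociation and a stranded low-input library kit. Replicates cannot be separated: the labels list 8 footprint libraries, and no source used here says how columns were made from them. The authors' deposited efficiency ratio was not used, and the Cre driver is not reported here by name.

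Counts were scaled by TMM with edgeR 4.0.16 in R 4.3.3 and filtered by filterByExpr (minimum count 10, minimum total 15), which kept 13479 genes for footprints and 16388 for RNA, among them 46 and 56 members. Ratios of scaled counts, with exact conditional binomial 95% counting intervals (Clopper-Pearson), were computed for genes with at least 20 counts in a pair of columns (Python 3.11.15, numpy 2.4.6, pandas 2.3.3, scipy 1.17.1; plots with matplotlib 3.10.9). The computation was tried on simulated counts that held counting error only, which cannot show the effect of PCR copies or of differences between libraries. The planned fallback to edgeR's test needed 1 column per library and was not run. A count of 0 was set to 3 counts.

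Named genes are the members with the highest mean RPKM, up to 5 per direction and comparison, the 3 at each end of footprints per RNA and members without footprints. Others were named after their values were seen. Members and lists were chosen with earlier results of these data known, and families were grouped after values were seen. Families and promoter windows came from RefSeq (GRCm38.p6), where 59 of 59 members and 21322 of 22553 symbols matched. Other settings tried were scaling by DESeq2 1.42.0 or by library size, TMM without receptor, mitochondrial and ribosomal genes, other count minimums, and sums without Olfr536.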

Additional observations from a re-analysis of the deposited data

Results flagged for a closer look

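For 2 members the KO ratio of footprints lay on opposite sides of 0 in the 2 populations, with counting intervals that excluded 0 on each side. The same count over all genes or other receptors is not given here, so it describes these members alone. Olfr466 had 42 footprints in the control and 48 in the KO of Ngn1-GFP cells, against 32 and 10 in OMP-GFP cells. The OMP-GFP ratio minus the Ngn1-GFP ratio was -2.61 on the log2 scale. Olfr533 had 98 and 89 footprints in Ngn1-GFP cells and 72 and 44 in OMP-GFP cells, a difference of ratios of -1.31. Its Ngn1-GFP interval began at 0.05, and scaling by library size alone shifts that comparison by -0.07, so that the interval then includes 0. With 1 column per group the difference between populations was not tested. The RNA ratios of Olfr533 were 0.51 and 0.44, and those of Olfr466 -1.19 and -0.03.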

How the results depend on the processing

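Over 32 results, 108 alternative values were computed, of which 86 stayed within the limits set for them and 22 moved. No sum whose interval excluded 0 changed sign, but a sum whose interval included 0 and 2 medians did. The summed footprints of the OMP-GFP KO went from 0.109 to 0.031 [-0.07, 0.13] by library size alone, an interval that includes 0. By library size alone the footprint median of mature over immature controls went from 0.176 to -0.039, the RNA median of the Ngn1-GFP KO from -0.03 to 0.025, and the summed footprints of the Ngn1-GFP KO from 0.036 to -0.03. That RNA median was 0.218 with at least 50 counts in 2 columns. Asking for at least 50 counts in 2 columns left 1, 3, 1 and 4 members apart in footprints for the Ngn1-GFP KO, the OMP-GFP KO, mature over immature controls and mature over immature KO cells, and 5 and 8 in RNA for the Ngn1-GFP KO and the controls. The footprint median was then 0.072 in the OMP-GFP KO, with 1 member higher and 2 lower, and 0.009 in mature over immature KO cells. Asking for at least 50 counts in the pair left 3 of 18, 10 of 22, 3 of 18 and 11 of 22 members measured apart in footprints. Here fewer genes are measured by construction, and the shares of all genes and other receptors at these minimums are not given. Without Olfr536, summed ratios were 0.235 and 0.49 for footprints in the Ngn1-GFP and OMP-GFP KO, 0.231 for mature over immature controls, and 0.189 and 0.183 for RNA in the 2 KO comparisons. By library size alone, summed footprint ratios of mature over immature cells were 0.144 in controls and 0.205 in KO cells, and summed RNA ratios 0.13 for the Ngn1-GFP KO, 0.355 for controls and 0.278 for KO cells. With at least 50 RNA counts and 10 footprints, the median log2 footprints per RNA of the Ngn1-GFP control was 0.968.

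No paired analysis was possible because the table holds 1 column per group and assay and the columns carry no replicate numbers. Leaving out a library, a replicate block and leaving out members with near-identical proteins were not run, the last because no protein sequences were used here. The sums of MOR204 without Olfr478 and Olfr506 were added after seeing the data. Depth limits single members: the median member had 10 to 15 footprints in a column, and 24 and 23 of the 59 were not measured in the 2 KO comparisons of footprints.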
